A study of Rattus norvegicus with 6 samples.

Results

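The genes described here are 10 collagen genes outside the fibril-forming class. They comprise Col4a1 and Col4a2 of the basement membrane, Col6a1, Col6a2 and Col6a3 of beaded microfibrils, the network-forming Col8a1, the fibril-associated Col12a1 and Col14a1, and the multiplexins Col15a1 and Col18a1. Members were found by gene symbol, and 9 of the 10 had a row among the 19616 genes of the FPKM table. Col6a3 was not analysed here. Of the 9 genes, 8 reached a mean of 0.1 FPKM over the 6 rats and were tested. FPKM is the number of fragments of a gene scaled to the length of its transcript and to the mapped fragments of the library, so levels can be compared between genes per length.

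RNA was sequenced from whole livers of male Sprague-Dawley rats, all of them wild type, with 1 library per rat. The 3 rats of the FL group (FL2, FL5 and FL12) received intraperitoneal injections (2 mL/kg) of a 1:1 mix of olive oil and carbon tetrachloride (CCl4), a hepatotoxic solvent. Injections were given 2 times a week over 5 weeks. The 3 rats of the CL group (CL5, CL6 and CL7) received the same volume of olive oil. The rats weighed 200 ± 20 g when purchased, before the injections, and the ages were not used here. Read counts were not used here, so the depth behind a value is not known. Values of single rats are always given in the order CL5, CL6 and CL7, then FL2, FL5 and FL12.

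Type IV collagen chains assemble into the sheet-like network of basement membranes, and type VI chains into thin beaded filaments around cells. In the normal liver the wall of the sinusoid has no continuous basement membrane, and stellate cells, portal fibroblasts, endothelial cells and hepatocytes all contribute to its matrix. Type XVIII collagen is a basement membrane proteoglycan whose terminal fragment, endostatin, acts on endothelial cells.

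In the FL group, the type IV chains Col4a1 and Col4a2, the type VI chains Col6a1 and Col6a2, and Col8a1 were upregulated. A differentially expressed gene (DEG) had an adjusted p under 0.05 in limma on log2(FPKM + 0.1), adjusted over the 14864 genes tested, and a change of at least 2-fold. By this rule 5 of the 8 members tested were higher in the FL group, against 9.29% of all genes, and 0 were lower, against 0.935% of all genes. At an unadjusted p under 0.05, 8 of the 8 were higher, against 31.5% of all genes, and 0 were lower, against 4.04%. All 3 FL rats lay above all 3 CL rats in 7 of the 8 members, against 35.7% of all genes. The median log2 difference (FL minus CL) was 1.52 over the 8 members and 0.29 over all genes. In bulk liver RNA, more cells of a type and more RNA per cell cannot be told apart. The median of all genes moved to 0.08 with median scaling and to -0.04 with quantile normalization, and the sign of each member's difference stayed positive under both. Over all genes 1381 were higher and 139 lower, and with quantile normalization 453 were higher and 231 lower, among which 4 members were higher. Because 0.1 is added before the logarithm, differences of weakly expressed genes are understated.

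**Figure D1:**
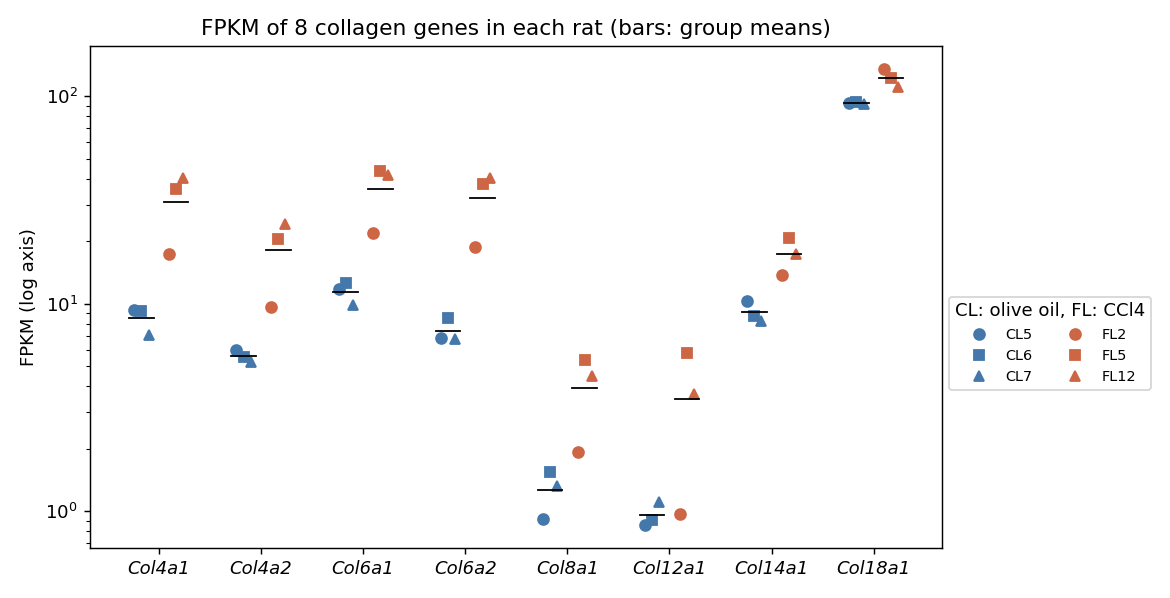
FPKM (log axis) of the 8 collagen genes tested in each of the 6 rats, with CL rats in blue, FL rats in orange and black bars for the group means. The FL rats lie above the CL rats in 7 of the 8 genes, and in Col12a1 FL2 (0.970 FPKM) lies among the CL rats.

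Col4a1 (ENSRNOG00000016281, chromosome 16) encodes the alpha 1 chain of type IV collagen, present in all basement membranes. It read 9.37, 9.24 and 7.09 FPKM in CL rats, and 17.3, 35.6 and 40.2 FPKM in FL rats. The groups did not overlap, and FL2 stood well under the other FL rats, at 2.02 times the CL mean against 4.16 times in FL5 and 4.69 times in FL12. The mean rose from 8.57 ± 1.28 to 31.0 ± 12.1 FPKM (SD, n = 3 rats each), a log2 difference of 1.77 (standard error 0.30, adjusted p = 0.00911). Relative to the median of all genes the difference was 1.48. The call held in each of 14 alternative fits, with adjusted p-values of up to 0.0417.

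Col4a2 (ENSRNOG00000023972, chromosome 16) encodes the alpha 2 chain, which joins alpha 1 chains in the same heterotrimer. It read 5.97, 5.56 and 5.21 FPKM in CL rats, and 9.59, 20.6 and 24.1 FPKM in FL rats. FL2 was again the lowest FL rat and still above each CL rat. The mean rose from 5.58 ± 0.380 to 18.1 ± 7.57 FPKM, a log2 difference of 1.58 (standard error 0.31, adjusted p = 0.0136). The call was lost without CL7 (adjusted p = 0.0561) and without FL5 (adjusted p = 0.0554), and over all alternatives the adjusted p lay between 8.44e-04 and 0.0561. Within each rat Col4a1 was the higher of the pair per length. The Col4a1 to Col4a2 ratio was 1.57, 1.66 and 1.36 in the CL rats and 1.80, 1.73 and 1.67 in the FL rats. The groups were barely apart, with CL6 just under FL12 (mean 1.53 ± 0.154 against 1.73 ± 0.0689, log2 difference 0.18). An exact two-sided permutation test gave p = 0.1. With 3 rats in each group no p under 0.1 can be reached, so no ratio could pass 0.05. Without CL7, the lowest of the CL rats, the log2 difference was 0.10 (exact permutation p = 0.2).

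In the RefSeq annotation (GRCr8), Col4a1 and Col4a2 lie head to head on opposite strands of chromosome 16, with no gene between them and 76 bases between their starts. Those bases are shown because they lie upstream of both chains, which were upregulated together. They span chr16:84885521-84885596 on the plus strand, which is the strand of Col4a1, and 79.0% of them are G or C. Capitals mark matches to GGGCGG (GC box) on either strand.
Col4a2-Col4a1 gap: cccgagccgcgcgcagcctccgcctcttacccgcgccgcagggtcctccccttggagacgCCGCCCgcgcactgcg

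The gap held 1 GC box, a motif found in the last 76 bases before the start in 18.1% of 33469 RefSeq promoters. The CCAAT box had no match in these bases, against 13% of promoters over the same length, whereas the 250 bases before Col4a1 and those before Col4a2 each held 1. The TATA box, searched as TATAAA, had no match in the gap, against 4.61% of promoters over the same length. The AP-1 motif, searched as TGANTCA, had none there, against 1.80% of promoters. Promoter sequences were matched for 7 of the 10 members, and those of Col6a2, Col12a1 and Col14a1 were not used.

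Col6a1 (ENSRNOG00000001249, chromosome 20) encodes the alpha 1 chain of type VI collagen. It read 11.8, 12.6 and 9.87 FPKM in CL rats, and 22.0, 43.4 and 41.5 FPKM in FL rats. The groups did not overlap, and FL5 and FL12 read close to each other while FL2 was lower. The mean rose from 11.4 ± 1.39 to 35.6 ± 11.8 FPKM, a log2 difference of 1.58 (standard error 0.25, adjusted p = 0.00742). Col6a2 (ENSRNOG00000001254, chromosome 20), the alpha 2 chain of the same microfibril, read 6.86, 8.49 and 6.79 FPKM in CL rats, and 18.7, 37.7 and 40.5 FPKM in FL rats. Its lowest FL rat was more than 2-fold above its highest CL rat. The mean rose from 7.38 ± 0.962 to 32.3 ± 11.9 FPKM, and the log2 difference of 2.04 (standard error 0.28, adjusted p = 0.00490) was the largest among the 8 members tested. Both calls held in each of the 14 alternative fits, with adjusted p-values of up to 0.0376 for Col6a1 and 0.0273 for Col6a2.

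The levels of Col6a1 and Col6a2 lay nearer to each other in the FL rats. The Col6a1 to Col6a2 ratio was 1.72, 1.48 and 1.45 in the CL rats and 1.18, 1.15 and 1.03 in the FL rats. Each FL rat lay below each CL rat, including FL2, which in the single chains was the lowest FL rat. The mean ratio was 1.55 ± 0.144 in the CL group and 1.12 ± 0.0817 in the FL group, a log2 difference of -0.47 (exact two-sided permutation p = 0.1, again the smallest possible). Multiplying all genes of a rat by 1 factor, as in median scaling, leaves such a ratio as it is, whereas quantile normalization can change it. The ratios of Col6a3 to Col6a1 and of Col15a1 to Col18a1 were planned and not run, because Col6a3 was not analysed and Col15a1 was listed at 0 in 5 rats.

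**Figure D2:**
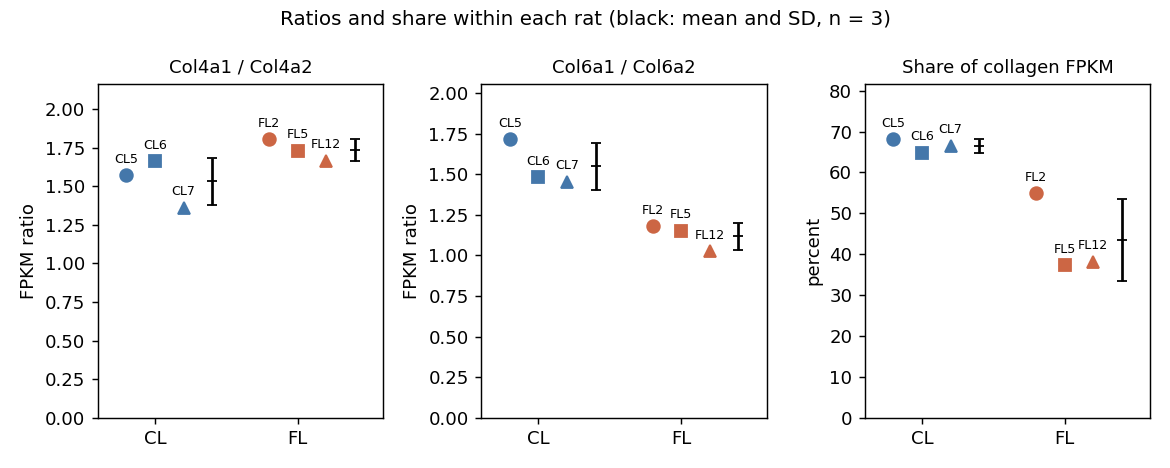
FPKM ratio of Col4a1 to Col4a2, FPKM ratio of Col6a1 to Col6a2, and the percent of summed collagen FPKM held by the 9 members with a row, for each of the 6 rats, with the group mean and SD in black. The Col6a1 to Col6a2 ratio lies between 1.45 and 1.72 in the CL rats and between 1.03 and 1.18 in the FL rats, and the share between 64.8% and 68.1% in the CL rats and between 37.2% and 54.9% in the FL rats.

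Col6a1 and Col6a2 are neighbours on chromosome 20, with 2 genes and no protein-coding gene between them, and Col18a1 lies on the other side of Col6a1. Between Col18a1 and Col6a1 RefSeq places 3 genes, of which Slc19a1 and Pcbp3 are protein-coding. These genes were looked up after their values were seen. Neither was a DEG, with a log2 difference of 0.25 for Slc19a1 (adjusted p = 0.487), which turned to -0.32 with quantile normalization, and of -0.20 for Pcbp3 (adjusted p = 0.605). The difference of Pcbp3 was -0.40 with median scaling and -0.80 with quantile normalization (adjusted p = 0.114), and that of Slc19a1 0.05 with median scaling. The 250 bases before the starts of Col6a1 and Col18a1 are shown for the member nearest to the mean pattern and the member farthest from it. They are from RefSeq (GRCr8), chr20:11905440-11905689 for Col6a1 and chr20:11473395-11473644 for Col18a1, both on the plus strand, with matches to the same motifs in capitals.
Col6a1: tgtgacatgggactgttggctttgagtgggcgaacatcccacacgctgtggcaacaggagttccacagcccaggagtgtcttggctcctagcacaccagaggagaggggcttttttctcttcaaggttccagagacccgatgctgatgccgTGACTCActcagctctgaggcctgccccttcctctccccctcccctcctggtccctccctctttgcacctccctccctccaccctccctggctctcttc
Col18a1: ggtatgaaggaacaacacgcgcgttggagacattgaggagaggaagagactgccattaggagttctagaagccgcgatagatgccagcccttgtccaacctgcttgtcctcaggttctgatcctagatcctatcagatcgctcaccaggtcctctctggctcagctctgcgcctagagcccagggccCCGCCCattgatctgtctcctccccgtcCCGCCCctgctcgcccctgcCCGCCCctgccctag

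The Col6a1 sequence held 1 match to TGANTCA, which 6.34% of the 33469 promoters held in their 250 bases, and 0 GC boxes. The Col18a1 sequence held 3 GC boxes, and 30.5% of promoters held at least 1. The CCAAT box and the TATA box were found in neither sequence, against 34.0% and 12.9% of promoters. A match describes the letters of the window and not a bound factor.

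Col8a1 (ENSRNOG00000039668, chromosome 11) encodes a short-chain collagen that forms hexagonal networks beneath endothelium. It read 0.92, 1.55 and 1.32 FPKM in CL rats, and 1.92, 5.34 and 4.48 FPKM in FL rats. The groups did not overlap, although FL2 was close to CL6. The mean rose from 1.26 ± 0.319 to 3.91 ± 1.78 FPKM, a log2 difference of 1.47 (standard error 0.37, adjusted p = 0.0326). This call was the least stable of the 5, and it held in 5 of the 14 alternative fits. It was lost with median scaling (adjusted p = 0.0598), with quantile normalization (0.0989), without a filter on low values (0.0554), without a trend in the prior (0.0610), and when CL5 (0.0988), CL6 (0.0595), CL7 (0.0928), FL5 (0.105) or FL12 (0.0982) was left out. The adjusted p ranged from 0.00459 to 0.105.

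The fibril-associated collagens decorate the surface of fibrils and did not pass both limits. Col12a1 (ENSRNOG00000058470, chromosome 8) read 0.86, 0.91 and 1.11 FPKM in CL rats, and 0.97, 5.80 and 3.68 FPKM in FL rats. FL2 read within the CL range, whereas FL5 and FL12 were several-fold above it, so the spread in the FL group was wide (0.960 ± 0.132 against 3.48 ± 2.42 FPKM). The log2 difference was 1.45 (standard error 0.55, adjusted p = 0.103). Without FL2 it was 2.16 with an adjusted p of 0.00346, with values between 0.00346 and 0.271 over all alternatives, so the call of Col12a1 depended on this rat.

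Col14a1 (ENSRNOG00000026415, chromosome 7) had the opposite profile, with a small difference and a narrow spread. It read 10.3, 8.77 and 8.24 FPKM in CL rats, and 13.7, 20.8 and 17.3 FPKM in FL rats. All FL rats were above all CL rats, and the means were 9.11 ± 1.08 and 17.3 ± 3.56 FPKM. The log2 difference of 0.90 (standard error 0.17) passed the limit on the adjusted p (0.0126) and not the 2-fold limit. Without FL2 it was 1.06 (adjusted p = 0.00621, the lowest of a range up to 0.0549), which passed both.

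Of the multiplexins, Col18a1 (ENSRNOG00000001229, chromosome 20) was the most abundant member in each of the 6 rats. It read 92.9, 93.6 and 91.4 FPKM in CL rats, and 135, 122 and 111 FPKM in FL rats. The CL rats were nearly equal, all FL rats were above them, and FL2 was the highest FL rat and FL12 the lowest. The means were 92.6 ± 1.13 and 123 ± 12.5 FPKM. The log2 difference of 0.40 (standard error 0.13) did not pass (adjusted p = 0.0619), and it stood 0.11 above the median of all genes. With median scaling it was 0.18 (adjusted p = 0.453, the highest over the alternatives) and with quantile normalization 0.43 (adjusted p = 0.0567, the lowest). The log2 difference itself was highest without FL12, at 0.47. Col15a1 (ENSRNOG00000039197, chromosome 5) was listed at 0 in all rats but FL12, where it read 0.01 FPKM. A separate row of chromosome 5, LOC100909752, is described in the table as a type XV alpha 1-like chain, and was chosen after its values were seen. It read 0.01 FPKM in each CL rat and 0.08, 0.17 and 0.27 FPKM in FL rats, under the filter, so it was not tested.

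**Figure D3:**
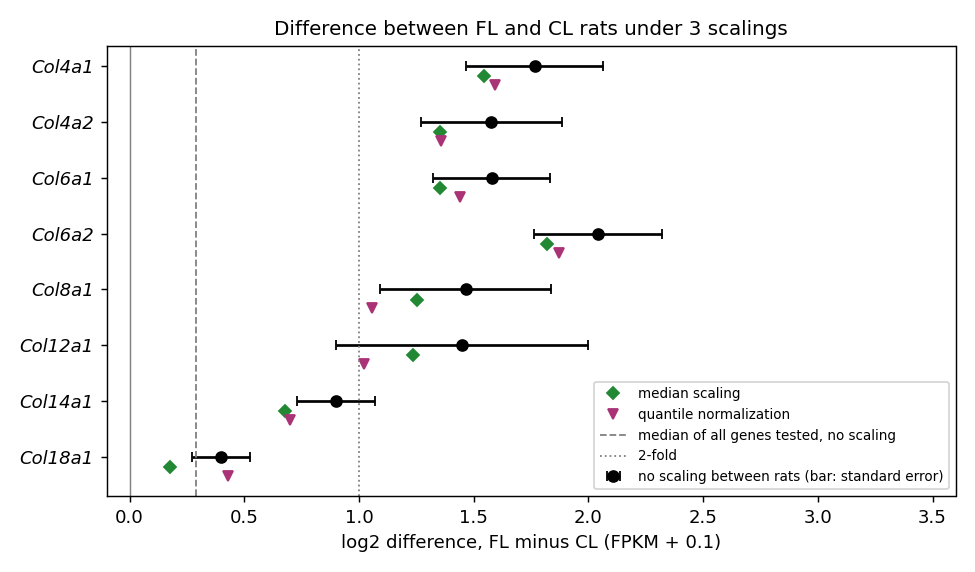
Log2 difference (FL minus CL) on log2(FPKM + 0.1) for the 8 members tested, without scaling between rats (black, bars for the standard error), with median scaling (green) and with quantile normalization (purple), where the dashed line is the median of all genes (0.29) and the dotted line a 2-fold change. Col4a1, Col4a2, Col6a1, Col6a2, Col8a1 and Col12a1 lie right of the dotted line under all 3 scalings, and Col18a1 moves between 0.18 and 0.43. Col12a1 was not a DEG under any of the 3, and Col8a1 was a DEG only without scaling.

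FL2 differed from the other FL rats in most members. It was the lowest FL rat in 7 of the 8 members and the highest in 1, Col18a1. FL5 was the highest FL rat in 4 members and FL12 in 3. The spread in the FL group was correspondingly wide, with a coefficient of variation of 39.0% in Col4a1, 41.9% in Col4a2, 33.2% in Col6a1 and 36.8% in Col6a2. In the CL group those values lay between 6.82% and 14.9%. Col18a1 varied least, by 1.22% in the CL group and 10.2% in the FL group.

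The order of the mean levels was not the same in the groups. By mean FPKM it was Col18a1, Col6a1, Col14a1, Col4a1, Col6a2, Col4a2, Col8a1 and Col12a1 in the CL group. Neighbours in this order overlapped between rats from Col6a1 to Col6a2 and again at Col8a1 and Col12a1. Steps without overlap were those from Col18a1 to Col6a1, from Col6a2 to Col4a2 and from Col4a2 to Col8a1. In the FL group the order was Col18a1, Col6a1, Col6a2, Col4a1, Col4a2, Col14a1, Col8a1 and Col12a1, and neighbours overlapped from Col6a1 to Col14a1 and at Col8a1 and Col12a1. Within single rats, Col6a1 was the second highest member in all 6, and Col6a2 ranked 5 in each CL rat and 3 in each FL rat. Col14a1 ranked 3 or 4 in the CL rats and 5 or 6 in the FL rats.

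Summed over the 9 members with a row, FPKM was 139, 141 and 131 in the CL rats and 219.6, 291 and 282 in the FL rats. Col18a1 made up 66.9%, 66.5% and 69.8% of this sum in the CL rats and 61.7%, 41.9% and 39.2% in the FL rats. All 3 FL rats were lower, FL2 by the smallest margin. Without Col18a1 the sum was 46.1, 47.1 and 39.6 FPKM in CL rats, and 84.1, 169 and 172 FPKM in FL rats.

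In each FL rat the members held a smaller share of collagen FPKM than in any CL rat. Of the summed FPKM of 40 collagen genes, they held 68.1%, 64.8% and 66.4% in the CL rats and 54.9%, 37.2% and 38.1% in the FL rats. Col6a3 was not among the 40, and the rows of Col1a2 and Col15a1 read at most 0.18 and 0.01 FPKM. The share therefore describes these rows and not the make-up of all collagen RNA. The groups did not overlap (66.5 ± 1.63% against 43.4 ± 9.96%), a difference of -23.0 percentage points (exact two-sided permutation p = 0.1, the smallest possible). When the fibrillar genes Col1a1, Col1a2 and Col3a1 were left out of the total, the difference was -1.12 percentage points (exact p = 0.6). Col3a1 by itself held 22.8%, 23.9% and 24.7% of collagen FPKM in CL rats, and 35.1%, 43.7% and 45.8% in the FL rats. Of the 11 fibrillar collagen genes 8 were tested, with 5 upregulated and 1 downregulated (Col27a1, log2 difference -1.15, adjusted p = 0.0389) and a median log2 difference of 1.74. Those upregulated included Col5a2 (log2 difference 2.14, adjusted p = 0.00565, called in 14 of the 14 alternative fits) and Col11a1 (2.27, adjusted p = 0.0341, called in 6 of 13). The call of Col5a1, named after its values were seen, held in 6 of 14. Whether that median differs from the 1.52 of the members was not tested. Of 24 other non-fibrillar collagen genes 9 were tested, and 2 were upregulated, Col16a1 (log2 difference 1.92, adjusted p = 0.0268) and Col8a2 (1.87, adjusted p = 0.0384), the partner chain of Col8a1. Those calls held in 6 and 3 of the 13 alternative fits in which the genes were tested. Col4a5 and Col13a1, the most abundant of these genes by the mean over the 6 rats, overlapped between the groups and did not pass, with log2 differences of 0.57 (adjusted p = 0.146) and -0.16 (adjusted p = 0.625). In the FL group Col4a4 (1.80 FPKM) and Col16a1 (1.58 FPKM) had higher means than Col13a1 (1.52 FPKM).

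The partners of type IV collagen in the basement membrane were upregulated in part. Of 17 listed genes 15 were tested and 7 were upregulated, with a median log2 difference of 0.93 against 0.29 over all genes. Nid1, which links laminin to type IV collagen, read 6.82, 5.76 and 5.15 FPKM in CL rats, and 11.7, 22.4 and 24.2 FPKM in FL rats (log2 difference 1.64, standard error 0.27, adjusted p = 0.00808). As in Col4a1 and Col4a2, FL2 was the lowest FL rat and FL12 the highest. The laminin chain Lama5 rose from 0.257 ± 0.0404 to 1.44 ± 0.679 FPKM (adjusted p = 0.0140). The laminin chain Lamb1 was also upregulated (log2 difference 1.49, adjusted p = 0.0127), as was Sparc, a collagen-binding glycoprotein (1.49, adjusted p = 0.0131). The perlecan gene Hspg2 was matched to its row through a RefSeq synonym after values were seen. Its mean was 4.61 ± 0.389 FPKM in the CL rats against 10.1 ± 2.86 FPKM in FL rats (log2 difference 1.07, adjusted p = 0.0159), and without it the count was 6 of 14. Of the 14 alternative fits, the call held in 14 for Nid1, 12 for Lamb1 and Sparc, 7 for Hspg2 and 4 and 9 for the other 2 genes, and for Lama5 in 10 of the 13 in which it was tested.

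Genes for the maturation, binding and cleavage of collagen had lower medians than the members, a difference that was not tested. Of 15 maturation genes 14 were tested and 2 were upregulated, with a median log2 difference of 0.34 (9.29% and 0.29 over all genes). These were Plod2, a lysyl hydroxylase (log2 difference 2.69, adjusted p = 0.00544), and Crtap, a part of the prolyl 3-hydroxylation complex (1.17, adjusted p = 0.0145). P4hb and Ppib, the most abundant of the list, had log2 differences of 0.59 (adjusted p = 0.0855) and 0.49 (adjusted p = 0.137). Of 11 receptor genes 8 were tested and 2 were upregulated, with a median log2 difference of 0.78. Antxr1, a receptor that binds type VI collagen, read 1.44, 1.21 and 1.48 FPKM in CL rats, and 2.67, 6.33 and 6.96 FPKM in FL rats (log2 difference 1.77, adjusted p = 0.0127). Its FL rats stood in the same order as those of Col4a1 and Col6a2. Antxr2, a related receptor and several-fold higher than Antxr1 per length in the CL rats, had a mean of 14.1 ± 1.34 FPKM in CL rats, against 10.9 ± 1.19 FPKM in FL rats. All FL rats were below all CL rats, and the log2 difference of -0.37 (standard error 0.13) did not pass (adjusted p = 0.0822, from 0.0252 to 0.216 over the alternatives). The difference was larger with median scaling (-0.59, adjusted p = 0.0252) and with quantile normalization (-0.57, adjusted p = 0.037), and under 2-fold in both. The other upregulated receptor was Mrc2, an endocytic collagen receptor (2.52, adjusted p = 0.00678). Itgb1, the beta 1 integrin chain and the most abundant receptor gene, had a log2 difference of 0.71 (adjusted p = 0.0148, under 2-fold). The call held in 14 of the 14 alternative fits for Plod2, in 13 for Antxr1 and in 9 for Crtap, and in each of the 13 fits that tested Mrc2.

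Of 7 genes for the cleavage of type IV collagen and the release of endostatin, all were tested and 2 were upregulated, with a median log2 difference of 0.81. The corresponding values over all genes were 9.29% and 0.29. Mmp2, the gelatinase that cleaves type IV collagen, read 2.77, 3.36 and 2.54 FPKM in CL rats, and 10.5, 19.2 and 20.8 FPKM in FL rats (log2 difference 2.45, standard error 0.26, adjusted p = 0.00236). FL2 was again the lowest FL rat and far above the CL rats. Ctss, a cysteine protease, had a log2 difference of 1.22 (adjusted p = 0.00475). The call of Mmp2 held in 14 of the 14 alternative fits and that of Ctss in 13. Ctsb and Ctsl, the most abundant genes of this list, had log2 differences of 0.81 (adjusted p = 0.0129, under 2-fold) and 0.30 (adjusted p = 0.238).

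Of 10 stellate cell or myofibroblast markers, all tested, 6 were upregulated, with a median log2 difference of 1.59 (9.29% and 0.29 over all genes). Of the 14 alternative fits, the calls of Pdgfra and Lum held in 8 and 9 and the other 4 calls in each. Their summed FPKM was 55.3, 46.8 and 44.9 in the CL rats and 87.7, 159.9 and 129 in the FL rats, with Tagln the most abundant in the CL group (12.8 FPKM) and Rgs5 marginally above it in the FL group (29.5 against 29.0 FPKM). The other 4 markers, named after their values were seen, were not DEGs. Lrat, which makes the retinyl esters that quiescent stellate cells store, overlapped between the groups (log2 difference -0.07, adjusted p = 0.758). Acta2, the smooth muscle actin of myofibroblasts, read 3.85, 2.62 and 2.68 FPKM in CL rats, and 3.87, 17.3 and 9.59 FPKM in FL rats (adjusted p = 0.0609), with FL2 level with CL5. Tagln had a log2 difference of 1.04 (adjusted p = 0.0621) and Reln of 0.54 (adjusted p = 0.0326, under 2-fold). Of 6 portal fibroblast markers 4 were tested and 2 were upregulated, with sums of 3.10, 3.50 and 3.49 FPKM in CL rats, and 9.60, 21.8 and 28.0 FPKM in FL rats. Eln was the most abundant, and Mfap4 was listed at 0 in the CL rats. The call of Eln held in each of 14 alternative fits and that of Entpd2 in 4 of 13, lost with either scaling. Of the 2 portal markers tested that were not DEGs, also named after their values were seen, Thy1 had a log2 difference of 1.16 (adjusted p = 0.0943) and Fbln2 of 0.70 (adjusted p = 0.377), with Fbln2 lower in FL2 (0.150 FPKM) than in any CL rat. In both lists FL2 had the lowest sum of the FL rats, as in 7 of the 8 members, and their part in the result was not tested.

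Over all genes tested 9.29% were upregulated, beside which the counts for the next lists are given. Of 6 macrophage markers 3 were upregulated, and their sum was 93.2, 88.7 and 91.7 FPKM in CL rats, and 217.6, 194 and 119 FPKM in FL rats, and highest in FL2, as Col18a1 was. Clec4f had the highest mean over the 6 rats and a log2 difference of -0.02 (adjusted p = 0.974), whereas in FL2 Marco was higher (79.0 against 66.6 FPKM), as it was in FL12 and in the FL mean. The calls of Marco and Cd68 held in each of the 14 alternative fits and that of Csf1r in 11. Of 6 endothelial markers tested 1 was upregulated, Vwf, whose call held in 5 of the 14 fits and was lost with median scaling (adjusted p = 0.0574) and quantile normalization (0.0989, the highest of a range from 0.00442). The list had sums of 73.7, 72.2 and 64.8 FPKM in CL rats, and 88.9, 75.5 and 83.4 FPKM in FL rats, highest in FL2. Kdr had the highest mean in the CL group (21.7 FPKM) and Lyve1 in the FL group (21.3 FPKM). The 6 hepatocyte markers, led by Alb, summed to 43928, 41668 and 42151 FPKM in CL rats, and to 32778, 34799.7 and 34359 FPKM in FL rats, with a median log2 difference of -0.09, which turned to 0.43 with quantile normalization. Limma gave 0 DEGs among them. At an unadjusted p under 0.05 there were 2 higher and 0 lower, against 31.5% and 4.04% of all genes. Without regard to p, each FL rat was under each CL rat in 3 of the 6, against 4.78% of all genes. Each FL rat was above each CL rat in 1, Apoa1 (log2 difference 0.73), against 35.7% of all genes. The 3, named like Apoa1 after their values were seen, were Alb (-0.38, adjusted p = 0.804, and 0.49 with quantile normalization), Ttr (-0.63, adjusted p = 0.316) and Hnf4a (-0.21, adjusted p = 0.239). Of 4 cycling markers 1 was upregulated, Mki67 (adjusted p = 0.0478), whose call held in 3 of the 14 fits and was lost with median scaling (0.0835) and quantile normalization (0.130), with adjusted p-values from 0.00458 to 0.144. Their sum, led by Mki67, was 2.19, 4.01 and 2.47 FPKM in CL rats, and 3.05, 14.7 and 12.5 FPKM in FL rats. The 4 cholangiocyte markers, led by Epcam, summed to 5.26, 7.68 and 5.51 FPKM in CL rats, and to 5.18, 7.72 and 10.35 FPKM in FL rats, with a median log2 difference of 0.16, which turned to -0.05 with median scaling and -0.28 with quantile normalization. The 4 mesothelial markers, led by Msln, summed to 2.90, 3.39 and 3.23 FPKM in CL rats, and to 0.870, 1.48 and 4.4 FPKM in FL rats, with a median log2 difference of -0.86. Limma gave 0 DEGs in both lists. At an unadjusted p under 0.05 there were 0 cholangiocyte genes and 1 mesothelial gene, Wt1 (named after its values were seen), which was higher in the FL group (log2 difference 1.37, adjusted p = 0.0927) against the direction of its list's median. Without regard to p, each FL rat was under each CL rat in 1 mesothelial gene, against 4.78% of all genes. This was Upk1b (log2 difference -1.035, adjusted p = 0.166), also named after its values were seen. The sums of the cycling, cholangiocyte and mesothelial markers were lowest among the FL rats in FL2, as were 7 of the 8 members. The 5 lymphocyte markers, led by Cd2, summed to 0.530, 0.880 and 0.710 FPKM in CL rats, and to 1.84, 1.81 and 1.55 FPKM in FL rats, highest in FL2. Of the 3 tested 1 was upregulated, with a median log2 difference of 0.77. This was Cd2, whose call held in 7 of 13 fits and was lost with median scaling (adjusted p = 0.0517) and quantile normalization (0.198, the highest of a range from 0.0225). No listed marker with a row was at 0 in all 6 rats, and the part of these cells in the result was not tested.

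The genes most like the members in pattern were sought among 13446 other protein-coding genes, by the Euclidean distance over the 6 rats to the mean of the members' centred log2 profiles. The 5 nearest were Tbc1d1 (distance 0.176), Lrrc16a (0.182), Sparc (0.183), Rcn3 (0.205) and Sfxn3 (0.222). Sparc read 35.1, 38.1 and 35.8 FPKM in CL rats, and 60.6, 133 and 133 FPKM in FL rats. The distances of the members to their own mean ran from 0.281 for Col6a1 to 1.58 for Col18a1. They cannot be weighed against those of the 5 genes, which were picked for the smallest distances.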

How the data were processed

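The authors trimmed the raw reads (FASTX-Toolkit), mapped them (TopHat2), kept unique alignments and deposited FPKM per gene and rat, with 2 decimals. The genome is named GRCh38 in the submitters' processing notes, whereas the gene identifiers are those of Ensembl for the rat, and whether reads were counted by strand is not given in the sources used here. Another 2 columns of values in the table were not used. Rats were grouped by their labels, and each library is a separate rat. The share of genes with identical values in a pair of rats was 0.866% to 2.54%, out of genes above 0 in either rat.

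The authors' FPKM values are not counts, so log2(FPKM + 0.1) was compared with limma, with a trend in the prior variance and Benjamini-Hochberg adjustment over the 14864 genes whose mean reached 0.1 FPKM. All standard errors and adjusted p-values are limma's. Within-rat ratios and shares were compared by exact two-sided permutation tests. The pseudocount was also set to 1 and to 0.01, and the filter to none and to a mean of 1 FPKM. Further alternatives were median scaling over 9201 genes above 1 FPKM in every rat, quantile normalization, fits without trend or with a robust prior, calls by the adjusted p alone, and fits without each of the rats. In median scaling, FPKM were divided by factors from 0.889 to 0.958 in the CL rats and from 1.03 to 1.12 in the FL rats.

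Named genes were all members, up to 4 DEGs with the largest change in each direction and the 2 most abundant genes (by the mean over all 6 rats) of each of 6 lists, whole marker lists by counts and sums, and the 5 genes nearest in pattern. Exceptions are stated where they occur, except for Col4a4 and for marker genes named for their calls or levels, which were also outside this rule. The members and lists were chosen with earlier results of these data known. The match of Hspg2 through a synonym was added after the values were seen. Sequences are from RefSeq (GRCr8), used otherwise for gene order only, and motifs were searched on both strands. The limma step was tested on simulated data, and no result of that test is given or used here. The software was limma 3.58.1 in R 4.3.3, together with matplotlib 3.10.9, pandas 2.3.3 and numpy 2.4.6 in Python 3.11.15.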

Additional observations from a re-analysis of the deposited data

How the results depend on the processing

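Col4a1, Col4a2, Col6a1 and Col6a2 kept their direction in each of the 14 alternative fits, and all but Col4a2 kept their calls. The 5 members called higher became 4 without a filter, with either scaling and without trend, 6 without a limit on the fold change, and between 3 (without CL7, and without FL5) and 7 (without FL2) with a rat left out. Without CL7 or FL5, the calls of Col4a2 and Col8a1 were lost. The members called lower stayed at 0 throughout. Of all genes, 1381 were higher, and 462 with a pseudocount of 1, 854 with a mean of at least 1 FPKM (fewer genes tested), 826 with median scaling, 453 with quantile normalization, 2518 without a limit on the fold change, and 740 (without CL7) to 1831 (without FL2) with a rat left out. Lower were 139, and 72 with a pseudocount of 1, 231 with quantile normalization, 288 without a limit on the fold change, and 81 (without CL6, and without CL7) to 160 (without FL2) with a rat left out. The cause of these shifts was not tested. The members' share of collagen FPKM differed by -1.12 percentage points without Col1a1, Col1a2 and Col3a1 in the total. With a rat left out, the Col6a1 to Col6a2 ratio differed by -0.51 to -0.40 (log2). The groups share 1 rat number (5), which is not known to link rats across groups, so no paired analysis was made. With 3 rats a group, FPKM alone and no read counts, the precision of low values such as those of Col8a1 and Col12a1 is not known.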

Other observations

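The fibrillar genes Col1a1 and Col1a2 stood far apart in level, and Col1a2 was named after its values were seen. Rats are in the order CL5, CL6 and CL7, then FL2, FL5 and FL12. Col1a1 read 2.12, 3.77 and 2.12 FPKM in CL rats, and 17.0, 101 and 73.7 FPKM in FL rats (log2 difference 4.24, standard error 0.60, adjusted p = 0.00519 from limma). Col1a2, whose chain joins that of Col1a1 in type I collagen, was listed at 0.01 to 0.02 FPKM in CL rats, and at 0.03, 0.18 and 0.16 FPKM in FL rats, and was under the filter. Whether the row of Col1a2 holds all reads of the gene was not tested, so its low level may not be that of the gene. The mean of Col3a1 was 49.0 ± 2.65 FPKM in the CL rats against 273.6 ± 115 FPKM in FL rats (log2 difference 2.37, adjusted p = 0.00490). Col27a1 was the 1 fibrillar gene called lower in the FL group, at 2.80, 5.63 and 3.43 FPKM in CL rats, and 1.13, 1.78 and 2.20 FPKM in FL rats. Its call held in 7 of the 14 alternative fits.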
